A study of Homo sapiens with 48 samples.

Results

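Butylated hydroxyanisole (BHA) and tert-butylhydroquinone (TBHQ) are phenolic antioxidants that differ at 1 position of the ring. BHA carries a methoxy group where TBHQ carries a hydroxyl group, and loss of the methyl group turns BHA into TBHQ, a quinol. The pair made up 4 of the 48 RNA libraries of the series, 2 for BHA and 2 for TBHQ, chosen by their labels and by no measured value. They were compared with the 14 libraries of 7 other antioxidants, labelled AO168_O, AO_2246, BHT, BHT_CHO, BHT_COOH, DG and DTBP, each with 2 libraries, and then with each other. BHT is butylated hydroxytoluene, which carries a methyl group in place of the methoxy group and a further tert-butyl group. BHT_CHO and BHT_COOH were read from their names as its aldehyde and acid forms.

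All 18 libraries came from wild-type H9, an established human embryonic stem cell line, grown as a monolayer in 24-well plates in E6 medium. The cells differentiated for 8 days, and the exposure to each compound lasted the same 8 days. The solvent control, DMSO (2 libraries, day 8), is given as a background level only and was not the reference of any test. Every difference below is one between the exposures used, since the labels name no dose and matching doses cannot be assumed. The labels call the 2 libraries of a compound replicates without saying whether they came from separate cultures, so p-values measure the spread between libraries, which may be technical. H9 is a single line, and no other line was measured.

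TBHQ is a classical activator of NRF2 (gene NFE2L2), the transcription factor that raises detoxifying, glutathione and iron-storage genes. In resting cells KEAP1 marks NRF2 for destruction. Quinones and other electrophiles modify cysteines of KEAP1, NRF2 then accumulates, pairs with small MAF proteins and binds antioxidant response elements (AREs) near its targets. BHA is converted to TBHQ and its quinone in animals, and phenols of this kind are removed by glucuronide and sulfate conjugation.

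No gene changed between the pair and the other antioxidants, between either compound and the others, or between TBHQ and BHA, in edgeR's quasi-likelihood test at a Benjamini-Hochberg adjusted p under 0.05 over 15716 genes. Among the 34 NRF2 targets measured, 3 were higher with TBHQ than with BHA at an unadjusted p under 0.05, and none was lower, beside 0.891% and 0.91% of all genes tested. These were NQO1, a quinone reductase, ME1, the cytosolic malic enzyme that makes NADPH, and FTL, the ferritin light chain. Their promoters are shown because these were the NRF2 targets at that level, although none passed the adjustment. Each runs from 250 bases before to 50 bases after the gene's start, 5′ to 3′ on the gene's strand, from RefSeq (GRCh38.p14), with matches to the ARE core TGACNNNGC on either strand in capitals. NQO1 lies at chr16:69726511-69726810 on the minus strand, ME1 at chr6:83431002-83431301 on the minus strand and FTL at chr19:48965059-48965358 on the plus strand.
NQO1: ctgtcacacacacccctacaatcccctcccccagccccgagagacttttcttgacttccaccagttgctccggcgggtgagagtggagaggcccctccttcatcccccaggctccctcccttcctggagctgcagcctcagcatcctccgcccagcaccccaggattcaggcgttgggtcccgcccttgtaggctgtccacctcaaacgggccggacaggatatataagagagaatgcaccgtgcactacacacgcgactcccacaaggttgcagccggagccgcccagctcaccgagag
ME1: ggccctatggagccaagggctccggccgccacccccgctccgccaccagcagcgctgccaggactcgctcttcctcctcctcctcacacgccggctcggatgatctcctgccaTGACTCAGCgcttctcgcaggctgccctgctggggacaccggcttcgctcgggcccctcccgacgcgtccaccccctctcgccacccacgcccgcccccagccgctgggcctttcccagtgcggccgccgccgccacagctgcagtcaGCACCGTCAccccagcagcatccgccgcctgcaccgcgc
FTL: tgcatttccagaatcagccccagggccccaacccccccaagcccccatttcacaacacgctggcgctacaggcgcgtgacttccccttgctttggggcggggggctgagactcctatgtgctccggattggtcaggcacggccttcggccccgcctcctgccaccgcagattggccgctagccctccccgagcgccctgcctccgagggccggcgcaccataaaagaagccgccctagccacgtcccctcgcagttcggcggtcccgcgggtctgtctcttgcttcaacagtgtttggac

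The ME1 window held 2 matches, 1 on each strand, starting 137 bases before and 12 bases after the gene's start. The NQO1 and FTL windows held none. A core of this kind was present in 13.3% of all promoter windows of the same length (4687 of 35116). Of the 34 NRF2 targets, 23 had a window in the RefSeq table, and 7 of these held a match (CBR1, GCLM, GPX2, ME1, PGD, SLC3A2 and TXNRD1). The letters describe these windows only, and a match is not a shown binding site.

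The 18 libraries were of even depth, with 17918867 to 20096130 counts and 17121 to 17992 genes with a count. They separated mainly by the number their label carries as a replicate, 1 or 2, and not by compound. Of the 18 libraries, 16 were nearest to a library with the same number, and 1 was nearest to its own replicate. TBHQ replicates were among the farthest apart, with a median absolute difference of 0.205 on the log2 scale over genes, against 0.14 for BHA. The second replicates of TBHQ and BHA differed by 0.0887, less than either compound's own replicates. This closeness was not particular to the pair. BHA replicate 2 was nearest to AO_2246 replicate 2 (0.0846), and at most 0.111 from every second replicate but that of DG (0.136). The first replicates of TBHQ and BHA lay farther apart (0.167). Each was nearest to another compound's first replicate, TBHQ to AO168_O (0.119) and BHA to BHT_COOH (0.121).

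Levels of PAX6 and POU5F1 differed with the replicate number as well. PAX6, a neural ectoderm regulator, was at 19.3 and 50.1 CPM (counts relative to the scaled library size) in BHA replicates 1 and 2 and at 5.72 and 62.2 CPM in TBHQ. POU5F1, the pluripotency factor OCT4, stood at 721 and 496 CPM in BHA and at 992 and 412 CPM in TBHQ. Thus the second replicate had more PAX6 and less POU5F1 under both compounds. Genes of early anterior neural ectoderm were present in all 4 libraries, LHX5 between 361 and 457 CPM and OTX2 between 287 and 355 CPM, while SOX1, a marker of the neural plate, stayed at 0.46 to 0.75 CPM. TBXT, a mesendoderm marker, was at 0.10 to 0.55 CPM and HAND1, an amnion and mesoderm marker, at 0.1 to 0.5 CPM. RNA came from whole wells, so a change in the number of cells of a type cannot be told apart from a change in RNA per cell.

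**Figure D1:**
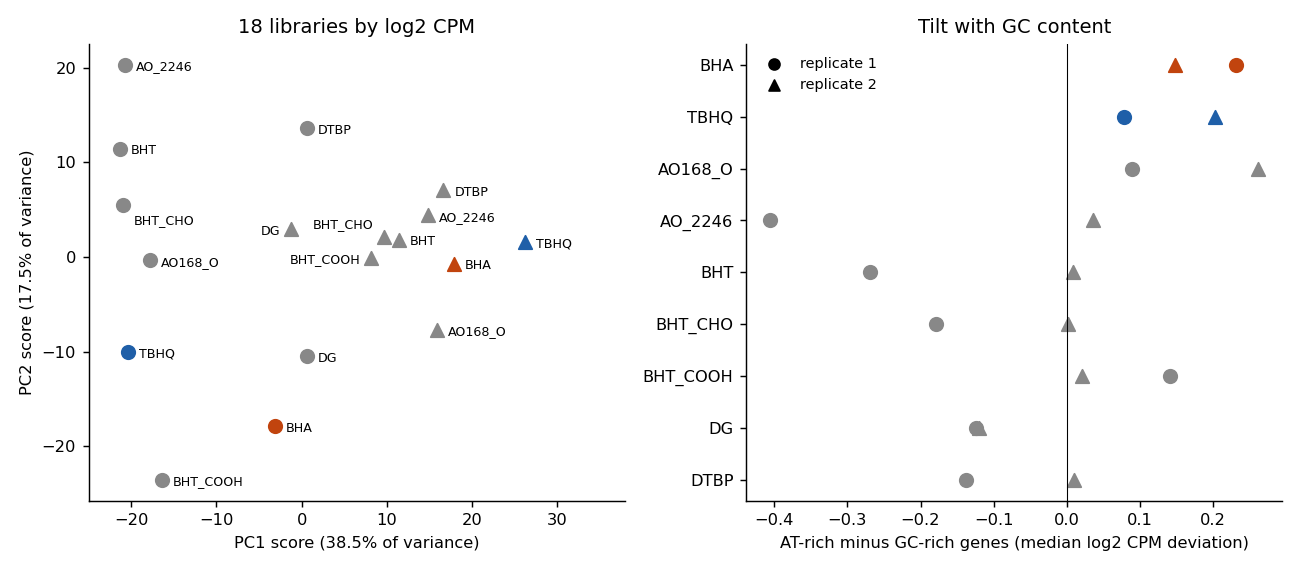
Left, scores of the 18 libraries on the first 2 principal components of log2 CPM, which hold 38.5% and 17.5% of the variance. Right, the median log2 deviation of the genes of lowest GC content minus that of the genes of highest GC content in each library. Circles are replicate 1 and triangles replicate 2. The 2 TBHQ libraries stand at −20.4 and 26.2 on the first component, and all 4 libraries of the pair lie right of 0 in the right panel.

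BHA and TBHQ were first set jointly against the mean of the other 7 antioxidants. No gene passed (percent called 0), and the lowest adjusted p was 0.574. At an unadjusted p under 0.05, 1158 genes differed (7.37%), 881 higher (5.61%) and 277 lower (1.76%) in the pair, where 786 would be expected with no difference. DESeq2 also called 0 genes, with 781 higher and 299 lower at an unadjusted p under 0.05. The excess on the higher side followed base composition. Among 13014 genes with a known transcript and a mean level above a set floor, the median log2 difference was 0.14 for GC contents of 30.2% to 41.3%. It was −0.08 for 59% to 76.8%. Of the genes higher at an unadjusted p under 0.05, 598 lay in the first of these classes and 2 in the second. With a smooth trend against GC content removed from each library, 254 genes were higher and 176 lower, 430 in all.

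The same tilt was present in single libraries of other compounds. The difference in deviation between low-GC and high-GC genes was 0.23 and 0.15 in BHA and 0.08 and 0.20 in TBHQ, while the other 14 libraries ran from −0.41 to 0.26. Both AO168_O libraries (0.09 and 0.26) and both BHT_COOH libraries (0.14 and 0.02) were on the same side. GC content and the pair cannot be told apart in these libraries for the genes that follow the tilt, so values with the trend removed stand beside them. The GC tilt was nearly absent between the pair's own members, with a median difference of TBHQ minus BHA of −0.01 in the low-GC class and 0.04 in the high-GC class. A trend with transcript length remained. The Spearman correlation of TBHQ minus BHA was −0.27 with length and 0.106 with GC content. Against the other antioxidants the correlation with length was 0.354 for BHA and 0.118 for TBHQ. No fit removed a length trend, and its part in the differences below was not tested.

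**Figure D2:**
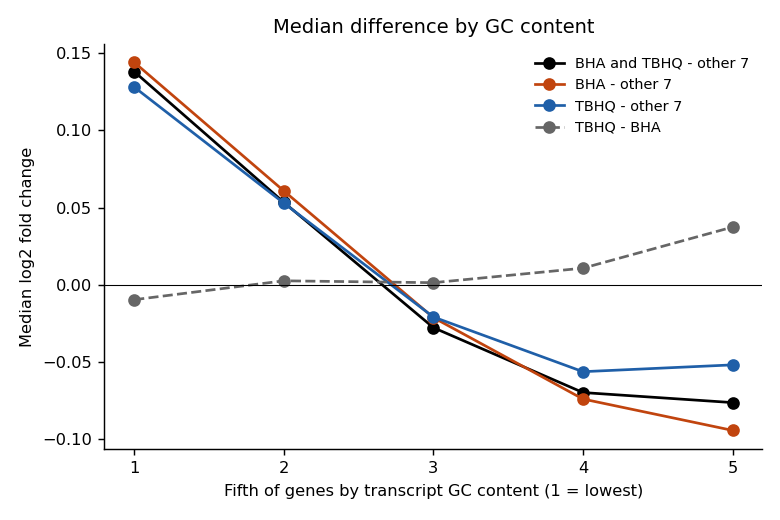
Median log2 fold change (vertical axis) of genes in 5 classes of transcript GC content, from lowest (1) to highest (5), for the 4 comparisons. The 3 lines against the other antioxidants go from 0.128 to 0.144 in class 1 to between −0.0942 and −0.0518 in class 5, while TBHQ minus BHA stays between −0.0096 and 0.0374.

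Only 7 genes had all 4 libraries of the pair above all 14 others (0.0445% of genes tested), and 6 had all 4 below (0.0382%). None passed the test. The 5 of lowest p on each side follow, each with 4 values in the order BHA replicates 1 and 2, then TBHQ replicates 1 and 2. PPP2R3A, a regulatory subunit of protein phosphatase 2A, had 30.1, 28.96, 27.5 and 28.4 CPM, against 22.4 to 27.5 CPM (median 24.6) in the others and 30.6 and 30.3 CPM with DMSO. Its log2 difference was 0.22 ± 0.06 (standard error, SE), with an unadjusted p of 0.00159 and an adjusted p of 0.574. The groups touched without overlapping, and DMSO stood with the pair. ZNF654, a zinc finger gene, had 11.9, 11.3, 11.96 and 11.8 CPM, against 8.31 to 11.1 CPM in the others. MSANTD4 had 24.3, 26.1, 26.5 and 28.2 CPM against 16.9 to 24.2 CPM, a log2 difference of 0.31 ± 0.09, the same size as that of ZNF654 (0.31 ± 0.08). BBS7, a subunit of the BBSome that carries cargo into cilia, had 23.7 to 24.2 CPM in the pair and 17.2 to 22.8 CPM in the others. RAB28, a small GTPase, had 29.3 to 30.6 CPM against 20.2 to 29.1 CPM. DMSO had 25.6 and 28.4 CPM of MSANTD4 and 24.6 and 22.85 CPM of BBS7, also above the others. For ZNF654 (11.4 and 10.8 CPM) and RAB28 (29.6 and 25.75 CPM) DMSO replicate 1 was above the others and replicate 2 was not. In transcript GC content these 5 genes ran from 36% to 42.7%, and with the GC trend removed their differences were 0.09, 0.14, 0.22, 0.11 and 0.09 in the same order.

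On the lower side stood DAG1, the dystroglycan receptor for laminin, with 161, 157, 163 and 161 CPM against 163 to 197 CPM in the others. DMSO had 243 and 200 CPM of DAG1, above every antioxidant library. SYNPO, an actin-binding protein, had 9.45, 8.76, 9.59 and 9.25 CPM against 9.69 to 13.5 CPM, the largest difference of the 5 (−0.31 ± 0.12). SMG9, a factor of nonsense-mediated mRNA decay, SNX12, a sorting nexin, and RNF26, a ubiquitin ligase, differed by −0.14 to −0.18, all at an adjusted p of 0.574 to 0.579. The gap between the highest value of the pair and the lowest of the others was under 1 CPM for SMG9 (49.2 and 49.3 CPM) and for SNX12 (59.6 and 60.1 CPM). With the GC trend removed the 5 differences lay between −0.08 and −0.24.

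Genes of the cell cycle list gave 5 higher and 1 lower of 28 tested at an unadjusted p under 0.05, beside 5.61% and 1.76% of all genes, and none passed the adjustment. TOP2A, the topoisomerase of mitotic chromosomes, had 511 and 423 CPM in BHA and 426 and 419 CPM in TBHQ, against 323 to 516 CPM (median 344) in the others and 563 and 470 CPM with DMSO. The groups overlapped, and the log2 difference was 0.26 ± 0.06 (unadjusted p = 0.00117, adjusted p = 0.574). MCM6, of the replicative helicase, differed by 0.19, BUB1B, of the spindle checkpoint, by 0.16, and the kinetochore genes CENPF and CENPE by 0.34 and 0.45. CDC20, the activator of the anaphase-promoting complex, was lower by 0.15 with 239 to 257 CPM in the pair. The list as a whole did not lean, with a median of −0.01 and 13 of 28 genes above 0, beside −0.01 and 48.3% for all genes. Without BHA replicate 1 only TOP2A and MCM6 stayed at an unadjusted p under 0.05, and with the GC trend removed only CENPF did.

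BHA alone was then set against the other 7 antioxidants. No gene passed (percent called 0, lowest adjusted p 0.795). At an unadjusted p under 0.05, 902 genes differed (5.74%), 552 higher (3.51%) and 350 lower (2.23%), and DESeq2 called none, with 412 higher and 388 lower at that level. Without BHA replicate 1 the count at an unadjusted p under 0.05 dropped to 162. With the GC trend removed it was 489. Both BHA libraries lay above all 14 others for 201 genes (1.28%) and below all of them for 213 (1.36%).

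The genes lowest in BHA by this rule were DUSP9, NEURL1, GATA2, ALOX5 and SDC4. DUSP9, a phosphatase that switches off ERK, was at 1.75 and 1.89 CPM with BHA, 2.73 and 2.61 CPM with TBHQ, and 2.68 to 3.35 CPM in the others. DMSO had 2.67 and 2.65 CPM, so both BHA libraries were lower than every library named. The log2 difference from the others was −0.71 ± 0.16 (unadjusted p = 0.000706, adjusted p = 0.795), and it stayed between −0.76 and −0.65 when any 1 library was left out. NEURL1, a ubiquitin ligase of Notch ligands, was at 6.95 and 7.12 CPM with BHA and 8.38 to 19.2 CPM in the others (−0.92 ± 0.21, adjusted p = 0.795). GATA2, a transcription factor of surface ectoderm and trophoblast, was at 4.25 and 4.78 CPM with BHA and at 7.42 and 6.59 CPM with TBHQ. The others ran from 5.71 to 8.61 CPM and DMSO had 7.001 and 7.20 CPM. The difference of BHA from the others was −0.63 ± 0.17 for GATA2, −0.35 ± 0.10 for ALOX5, the 5-lipoxygenase of leukotriene synthesis, and −0.30 ± 0.08 for SDC4, a syndecan of cell adhesion. With the GC trend removed these 5 differences were −0.62, −0.83, −0.55, −0.29 and −0.28. DMSO had 11.0 and 11.9 CPM of ALOX5, below the others (12.1 to 15.7 CPM) like BHA. It had 13.45 and 10.95 CPM of NEURL1 and 72.9 and 71.1 CPM of SDC4, inside the range of the others.

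The genes highest in BHA were PSIP1, JMJD7-PLA2G4B, HMGN5, ABHD3 and CASP8AP2. PSIP1, a chromatin reader also called LEDGF, was at 463 and 397 CPM with BHA, 377 and 375 CPM with TBHQ and 332 to 395 CPM in the others (0.26 ± 0.07, adjusted p = 0.795). CASP8AP2, which is needed for histone mRNA processing, was at 27.1 and 22.8 CPM against 13.3 to 22.0 CPM (0.52 ± 0.14), and one TBHQ library, at 25.8 CPM, was also above the others. HMGN5, a nucleosome-binding protein, and ABHD3, a phospholipase, differed by 0.45 and 0.35. With the GC trend removed PSIP1 differed by 0.14, CASP8AP2 by 0.37, HMGN5 by 0.23 and ABHD3 by 0.22. DMSO had 440 and 399 CPM of PSIP1 and 24.8 and 22.35 CPM of CASP8AP2, also above the others. For HMGN5 (15.4 and 13.45 CPM, others up to 14.96 CPM) DMSO replicate 1 was above the others. For ABHD3 (13.9 and 12.4 CPM, others up to 14.96 CPM) neither was. JMJD7-PLA2G4B is a read-through gene that shares exons with JMJD7 and PLA2G4B, so its level is uncertain. It had 22.6 and 20.4 CPM with BHA, while the 3 genes summed gave 33.2 and 34.2 CPM, inside the range of the others (24.3 to 35.3 CPM).

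TBHQ alone against the other 7 gave no gene either (percent called 0, lowest adjusted p 1). At an unadjusted p under 0.05 there were 606 genes (3.86%), 426 higher (2.71%) and 180 lower (1.15%), fewer than the 786 expected with no difference. DESeq2 called none, with 345 higher and 151 lower at that level. Both TBHQ libraries lay above all 14 others for 98 genes (0.624%) and below them for 87 (0.554%). Both single-compound comparisons used the same 14 reference libraries.

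NRP2 (gene ID 8828, chromosome 2), a receptor for semaphorins and VEGF, had the lowest p with TBHQ. It was at 41.6 and 50.1 CPM with TBHQ, 78.5 and 75.3 CPM with BHA, 52.6 to 89.5 CPM (median 71.0) in the others and 58.0 and 67.6 CPM with DMSO. Both TBHQ libraries were thus below every other library of these groups, by −0.57 ± 0.12 against the other antioxidants (unadjusted p = 0.000492, adjusted p = 1). ADA2, a secreted adenosine deaminase, was at 118 and 117 CPM with TBHQ and 123 to 159 CPM in the others (−0.28 ± 0.07). DGKA, a diacylglycerol kinase, and INCENP, of the chromosomal passenger complex, differed by −0.29 and −0.26. F8A3 has the near-identical copy F8A1 and is uncertain; the copies summed gave 36.3 and 41.1 CPM with TBHQ and 38.8 to 49.4 CPM in the others. On the higher side, ATE1, an arginyltransferase of the N-degron pathway, was at 28.0 and 27.3 CPM with TBHQ against 19.7 to 24.0 CPM (0.31 ± 0.07, adjusted p = 1), though DMSO reached 28.8 CPM. LTN1, a ubiquitin ligase of ribosome quality control, differed by 0.45, DDIAS, an anti-apoptotic gene, by 0.39 and VRK1, a chromatin kinase, by 0.26. With the GC trend removed ATE1 differed by 0.20, LTN1 by 0.31, DDIAS by 0.26 and VRK1 by 0.15. DMSO had 37.7 and 34.55 CPM of LTN1 (others up to 33.7 CPM) and 24.6 and 21.9 CPM of DDIAS (others up to 22.8 CPM). It had 54.75 and 43.3 CPM of VRK1 (others up to 53.1 CPM).

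Set beside BHA directly, TBHQ showed no gene past the threshold in edgeR (percent called 0, lowest adjusted p 1). At an unadjusted p under 0.05 there were 140 genes higher (0.891%) and 143 lower (0.91%) with TBHQ, 283 in all (1.8%), under the 786 expected with no difference. In DESeq2 1 gene, PTCD1, passed at an adjusted p of 0.0236, with 118 higher and 94 lower at an unadjusted p under 0.05. The 2 libraries of each compound did not overlap for 1864 genes higher (11.9%) and 2005 lower (12.8%) with TBHQ. The exchange of methoxy for hydroxyl came with no gene called in edgeR, which does not show that the 2 exposures act alike. The 95% confidence interval of TBHQ minus BHA lay within a factor of 2 either way for 79.7% of the genes, and it reached beyond that for the rest.

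The 34 NRF2 targets leaned towards TBHQ. Of these, 27 had a log2 difference above 0 and the median was 0.11, where all genes had 49.9% above 0 and a median of 0.00. NQO1 (gene ID 1728, chromosome 16) had 20.7 and 24.8 CPM with BHA, 31.4 and 33.4 CPM with TBHQ, 18.3 to 35.0 CPM (median 25.2) in the others and 27.0 and 24.1 CPM with DMSO. The BHA and TBHQ libraries did not overlap, while the other antioxidants covered both, with 1 DTBP and 1 BHT library at the top. TBHQ minus BHA was 0.51 ± 0.16 for NQO1, with a 95% interval of 0.16 to 0.85, an unadjusted p of 0.00728 and an adjusted p of 1. Leaving out any 1 of the 4 libraries gave 0.38 to 0.65, and removing the GC trend gave 0.51.

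ME1 (gene ID 4199) stood at 5.80 and 6.07 CPM with BHA and 8.97 and 7.58 CPM with TBHQ, against 5.44 to 8.43 CPM in the others and 7.35 and 7.15 CPM with DMSO. TBHQ was above BHA in both libraries, by 0.48 ± 0.21 (unadjusted p = 0.038, adjusted p = 1). FTL (gene ID 2512) was at 1993 and 2422 CPM with BHA and at 2975 and 2631 CPM with TBHQ. The others had 2246 to 3139 CPM of FTL and DMSO only 2062 and 2072 CPM. The difference between TBHQ and BHA was 0.34 ± 0.13 (unadjusted p = 0.0163, adjusted p = 1). Against the other antioxidants, FTL was lower with BHA by 0.25 ± 0.10, at an unadjusted p of 0.0213 and an adjusted p of 0.795. NQO1 was the 1 target of 34 higher with TBHQ than with the others at an unadjusted p under 0.05 (0.33 ± 0.12, adjusted p = 1), beside 2.71% of all genes. The median over the 34 targets was −0.14 for BHA and 0.01 for TBHQ against the same 14 libraries, beside 0.01 and 0.00 for all genes.

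The lean of the targets moved with single libraries. Without TBHQ replicate 1, 18 of 34 were above 0 with a median of 0.01, and without BHA replicate 1, 25 were, with a median of 0.13. The median was 0.12 without BHA replicate 2 and 0.22 without TBHQ replicate 2. Each fit of this kind, here and below, leaves 1 library of a compound and no longer balances the replicate numbers. With the replicate number as a block, 4 targets were higher with TBHQ at an unadjusted p under 0.05 and none was lower. In that fit 251 of all 15716 genes were higher and 311 lower at that level. Other widely used NRF2 targets did not separate TBHQ from BHA. HMOX1, heme oxygenase 1, was at 11.0 and 12.7 CPM with BHA and at 16.6 and 9.35 CPM with TBHQ, so the TBHQ libraries enclosed both BHA libraries. GCLM, a subunit of the enzyme that starts glutathione synthesis, was at 18.3 and 12.8 CPM with BHA and 18.4 and 14.1 CPM with TBHQ. Its partner GCLC was at 32.9 and 34.3 against 37.0 and 34.2 CPM, and TXNRD1, thioredoxin reductase 1, at 116 and 105 against 123 and 107 CPM. SRXN1, sulfiredoxin, differed by 0.10 ± 0.15 and the cystine carrier SLC7A11 by 0.03 ± 0.31. The 95% interval of TBHQ minus BHA ran from −0.43 to 0.68 for HMOX1, −0.38 to 0.51 for GCLM, −0.24 to 0.41 for GCLC and −0.18 to 0.30 for TXNRD1.

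**Figure D3:**
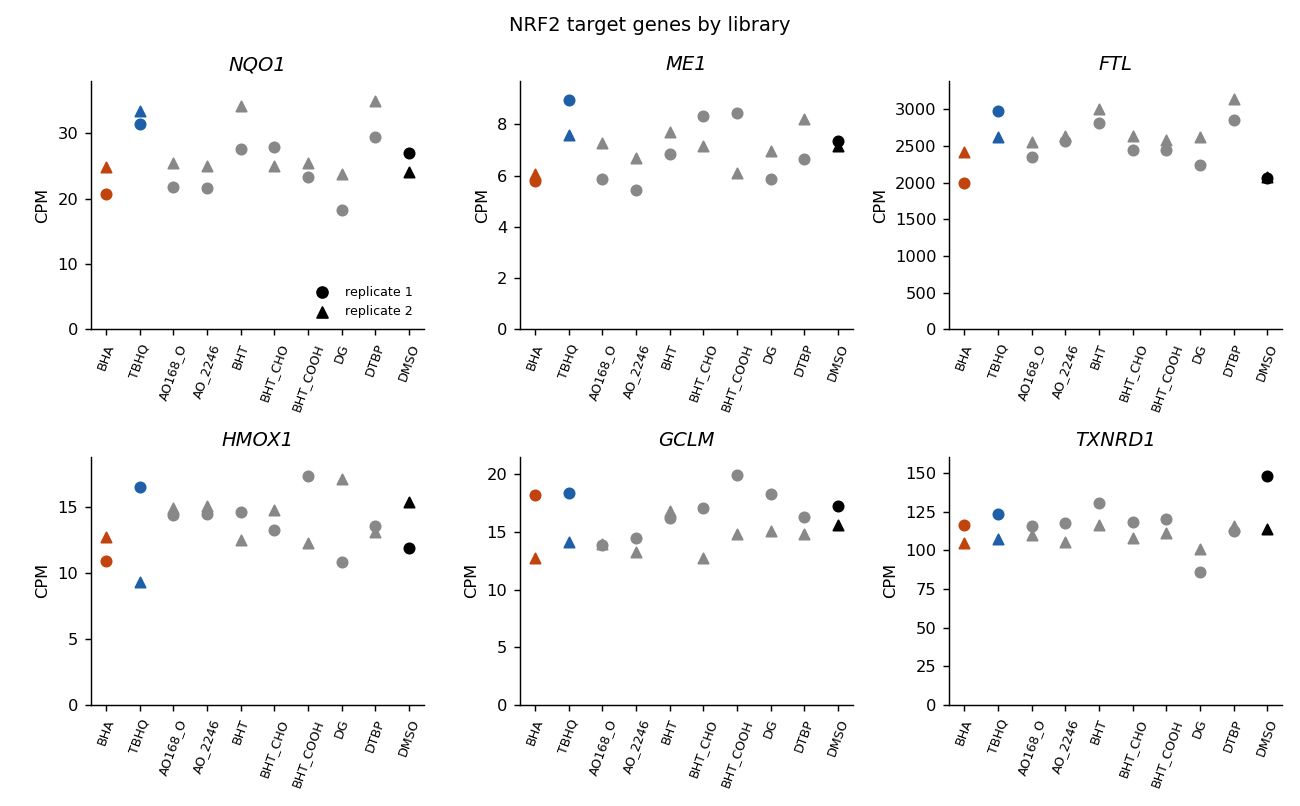
CPM of 6 NRF2 targets in each library (circles, replicate 1; triangles, replicate 2) for BHA, TBHQ, the other 7 antioxidants and DMSO. For NQO1, ME1 and FTL in the top row both TBHQ libraries lie above both BHA libraries, and for HMOX1, GCLM and TXNRD1 in the bottom row they overlap.

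Of the 11 regulators of the pathway, 1 was higher in the pair than in the others at an unadjusted p under 0.05 and none was lower. Over all genes the shares were 5.61% and 1.76%. This was NFE2L2 itself, which encodes NRF2. It had 37.9 and 35.2 CPM with BHA and 40.2 and 38.5 CPM with TBHQ, against 22.1 to 39.4 CPM (median 32.6) in the others. NFE2L2 was higher in the pair by 0.26 ± 0.11 (unadjusted p = 0.0304, adjusted p = 0.623), with overlap, and by 0.23 with the GC trend removed. KEAP1, its inhibitor, was at 39.2 to 42.7 CPM in the pair and 38.6 to 50.4 CPM in the others. NRF2 is controlled mainly at the protein level, which these libraries do not measure. Of 29 glutathione and redox enzymes tested, 1 was lower with TBHQ than with BHA at an unadjusted p under 0.05, beside 0.91% of all genes. This was GSTM2, a glutathione transferase, at 15.8 and 17.5 against 19.95 and 19.6 CPM (−0.25 ± 0.11, adjusted p = 1). A difference above 0 was found for 24 of the 29, beside 49.9% of all genes. Of 9 conjugating enzymes for phenols tested, none differed at an unadjusted p under 0.05 in any of the 4 comparisons. CYP1A1, a target of the aryl hydrocarbon receptor, was near the floor, with 0.10 and 0.05 CPM in BHA, 0.10 and 0.30 CPM in TBHQ and 0.16 to 0.76 CPM in the others. It was lower in the pair by 1.53 on the log2 scale (SE 0.44, unadjusted p = 0.00423, adjusted p = 0.574). CYP1B1, another monooxygenase induced through that receptor, was at 2.80 and 1.84 CPM with BHA and 2.84 and 4.43 CPM with TBHQ, without a difference at an unadjusted p under 0.05.

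Targets of p53 showed the same order of BHA below TBHQ. Of 18 tested, 3 were higher with TBHQ at an unadjusted p under 0.05, none was lower (0.891% and 0.91% over all genes), 16 were above 0 and the median was 0.18. PHLDA3, an inhibitor of AKT, was at 50.8 and 54.1 CPM with BHA and 70.4 and 69.3 CPM with TBHQ, against 54.9 to 81.9 CPM in the others and 51.0 and 51.9 CPM with DMSO. BHA was below all 14 other antioxidant libraries and close to DMSO, and TBHQ was inside their range. TBHQ minus BHA was 0.41 ± 0.12 (unadjusted p = 0.00463, adjusted p = 1), and 0.37 to 0.46 with any 1 of the 4 libraries left out. FDXR, ferredoxin reductase, had 39.2 and 44.1 CPM with BHA and 58.8 and 49.7 CPM with TBHQ (0.38 ± 0.16). BAX, which opens the mitochondrial membrane in apoptosis, had 82.9 and 104 CPM with BHA and 115 and 117 CPM with TBHQ (0.32 ± 0.12). Against the other antioxidants, DDB2, FDXR, PHLDA3 and BAX were lower with BHA at an unadjusted p under 0.05, beside 2.23% of all genes. None of the 18 was at that level with TBHQ, beside 3.86% of all genes. CDKN1A, which encodes p21, had 67.8 and 129 CPM with BHA and 91.8 and 175 CPM with TBHQ, higher in replicate 2 of each and, at each replicate number, higher with TBHQ. MDM2 was between 57.3 and 62.5 CPM in all 4. Without BHA replicate 1 the median over the list was 0.0222 for BHA against the others and 0.08 for TBHQ minus BHA. Without TBHQ replicate 2 the median of TBHQ minus BHA was −0.01.

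The genes with the lowest p higher with TBHQ than with BHA included PTCD1, ATP6V0D2, TMEM191C and PHLDA3. PTCD1 (gene ID 26024, chromosome 7), a mitochondrial RNA-processing protein, was at 20.6 and 17.1 CPM with BHA and 35.3 and 36.8 CPM with TBHQ, and at 15.3 to 33.6 CPM in the others (0.93 ± 0.18, unadjusted p = 0.000152, adjusted p = 1). Its exons also belong to the read-through gene ATP5MF-PTCD1, which had 11.6 and 19.6 CPM with BHA and 8.35 and 0 CPM with TBHQ. The sum of both was 32.1 and 36.7 CPM with BHA, 43.7 and 36.8 CPM with TBHQ and 33.7 to 40.3 CPM in the others. PTCD1 alone was thus 1.91 times as high with TBHQ as with BHA, and the sum 1.17 times. The share of counts given to each of the 2 annotated genes differed, and the level of PTCD1 is uncertain.

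**Figure D4:**
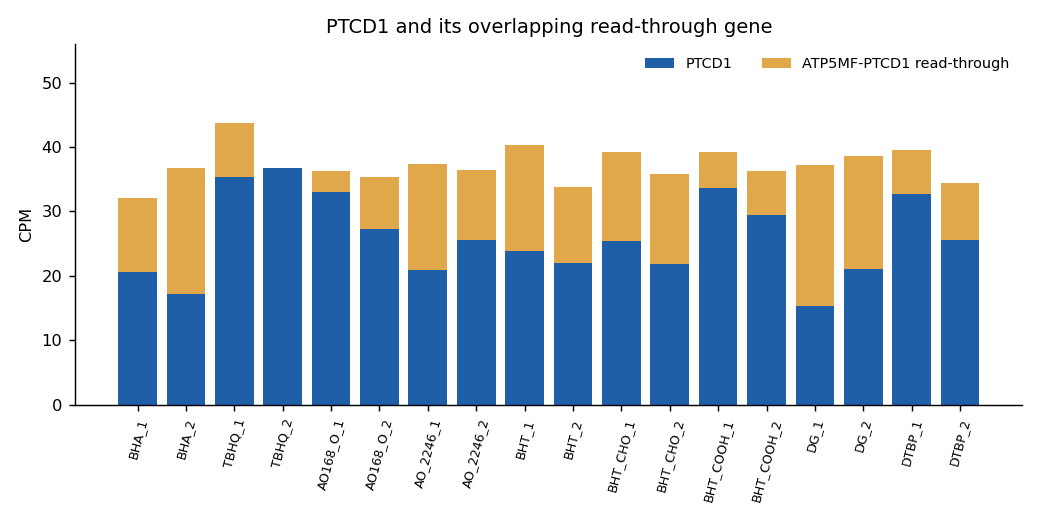
CPM of PTCD1 and of the overlapping read-through gene ATP5MF-PTCD1, stacked, in each of the 18 libraries. The TBHQ bars hold 35.3 and 36.8 CPM of PTCD1 and the BHA bars 20.6 and 17.1 CPM, while the full bar heights of 3 of these 4 libraries lie between 32.1 and 36.8 CPM.

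ATP6V0D2, a subunit of the proton pump, had 1.10 and 0.90 CPM with BHA and 3.09 and 2.21 CPM with TBHQ (1.40 ± 0.31). The others ran from 1.16 to 3.35 CPM of ATP6V0D2, so BHA was below all of them and TBHQ was inside their range. TMEM191C has the close copy TMEM191B and is uncertain, with a sum of 10.4 and 8.76 CPM with BHA against 12.8 and 11.1 CPM with TBHQ. NRP2 led the genes lower with TBHQ (−0.75 ± 0.16, 95% interval −1.08 to −0.41, unadjusted p = 0.000354, adjusted p = 1), and it stayed between −0.89 and −0.62 with any 1 of the 4 libraries left out. SORBS2, an adaptor of the actin cytoskeleton, was at 39.7 and 28.2 CPM with BHA and 17.4 and 16.5 CPM with TBHQ (−0.9995 ± 0.26). EPHB1, an ephrin receptor, was at 10.2 and 9.90 CPM with BHA and 6.39 and 6.84 CPM with TBHQ (−0.60 ± 0.16). For EPHB1 both BHA libraries exceeded the others (6.58 to 9.64 CPM) and 1 TBHQ library was below them. AMER3, a regulator of WNT signalling, was at 1.15 and 1.05 against 0.41 and 0.44 CPM. TICAM2, which shares exons with TMED7-TICAM2, was at 0.90 and 1.34 CPM with BHA and at 0.21 and 0 CPM with TBHQ, and the sum of both genes was higher with TBHQ (3.56 and 4.97 CPM) than with BHA (3.05 and 3.58 CPM).

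Feedback genes of FGF and ERK signalling gave 3 higher and 1 lower of 18 with TBHQ against BHA at an unadjusted p under 0.05, beside 0.891% and 0.91% of all genes, with a median of 0.17. Without BHA replicate 1 none was at that level and the median was −0.0882, and without TBHQ replicate 2 the median was −0.21. IER3 was at 6.90 and 8.81 CPM with BHA and 11.0 and 12.99 CPM with TBHQ (0.61 ± 0.22), FOSL1, an AP-1 subunit, at 13 and 16.5 against 20.9 and 19.8 CPM (0.46 ± 0.14). PHLDA1 differed by 0.34 ± 0.15 and ETV1, an ETS factor, by −0.30 ± 0.11, all at an adjusted p of 1. Among 18 surface ectoderm genes, GATA2 and GATA3 were higher with TBHQ at an unadjusted p under 0.05, beside 0.891% of all genes. None of the list was lower at that level, and its median of 0.17 became −0.0433 without TBHQ replicate 2. GATA3 was at 16.1 and 11.6 CPM with BHA and 20.7 and 24.5 CPM with TBHQ (0.71 ± 0.31), against 12.4 to 29.5 CPM in the others. Of 24 cholesterol genes, 23 had a difference above 0, beside 49.9% of all genes, with a median of 0.11, and none passed the adjustment. Signalling genes at low levels also separated. Of 19 WNT genes 1 was higher with TBHQ at an unadjusted p under 0.05, and of 14 retinoic acid genes 1 was, beside 0.891% of all genes. WNT6, a secreted WNT ligand, had 0.50 and 0.60 CPM with BHA and 1.65 and 1.97 CPM with TBHQ, and RARB, a retinoic acid receptor, had 2.35 and 2.04 against 4.07 and 4.28 CPM. For WNT6 1 BHA library was under the range of the others (0.56 to 2.79 CPM), and for RARB all 4 libraries were inside it (1.87 to 7.35 CPM). Of the 18 pluripotency and 24 neural ectoderm genes tested, none differed between TBHQ and BHA at an unadjusted p under 0.05. Of 6 mesendoderm genes 1 was lower with TBHQ at that level, beside 0.91% of all genes. This was MIXL1, at 0.67 and 0.74 against 1.55 and 1.00 CPM.

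**Figure D5:**
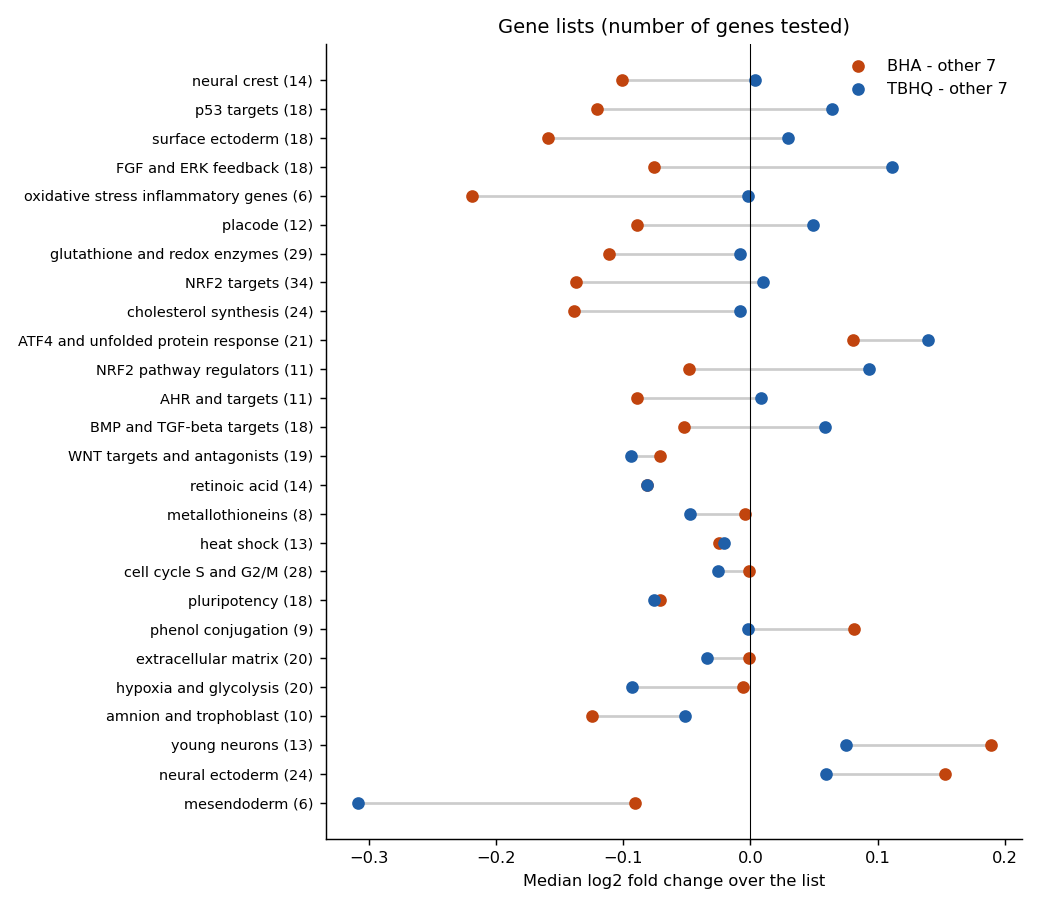
Median log2 fold change over the genes of 26 lists (number tested in brackets) for BHA and for TBHQ, each against the other 7 antioxidants, ordered by the median of TBHQ minus BHA. The lists of NRF2 targets (−0.137 and 0.00959), p53 targets (−0.121 and 0.0641) and surface ectoderm (−0.159 and 0.0292) lie below 0 with BHA and above 0 with TBHQ, and both compounds were compared with the same 14 libraries.

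These signs did not all hold with 1 library left out. The median of the NRF2 targets with TBHQ was −0.0689 without TBHQ replicate 1, that of the surface ectoderm genes with TBHQ was −0.112 without TBHQ replicate 2, and that of the p53 targets with BHA was 0.0222 without BHA replicate 1.

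Last, BHA and TBHQ were each compared with every other antioxidant singly. Over the 15 pairs, TBHQ with BHA included, no gene passed after adjustment over all 235740 tests (percent called 0), and 9559 of these tests had an unadjusted p under 0.05. The pairs share libraries, so their counts are not independent. BHA was closest to BHT_COOH, with 176 genes (1.12%) at an unadjusted p under 0.05 and a median absolute log2 difference of 0.11. TBHQ was closest to AO168_O, with 177 genes (1.13%) and 0.09. The most genes at that level were found for TBHQ with DG (1411, 8.98%) and BHA with AO_2246 (1300, 8.27%). BHA with BHT, where a methoxy group stands against a methyl group and a further tert-butyl group, gave 1028 genes (6.54%), and TBHQ with BHT gave 447 (2.84%). TBHQ with BHA, the pair that differs by the methyl group alone, gave 283. That was more than BHA with BHT_COOH (176) or AO168_O (237), and more than TBHQ with AO168_O (177) or BHT_COOH (198). For TBHQ with BHA 79.7% of the intervals lay within a factor of 2 either way, against 77.4% for BHA with BHT and 79.6% for TBHQ with BHT.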

How the data were processed

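The authors deposited expected counts, also called estimated counts, made from the reads of each library for 19253 genes, with decimals, per the file headers. The genome build was GRCh38.p13, per the submitters' processing notes. Aligner, counting tool and use of strand are not stated in the sources used here, so antisense and overlapping genes cannot be told apart. Counts of 18 libraries were rounded to whole numbers, which changed 43.1% of values. Genes were filtered with filterByExpr by group, leaving 15716. Library sizes were scaled by TMM (0.933 to 1.04), and CPM are on that scale.

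Tests used edgeR 4.0.16 in R 4.3.3 (glmQLFit and glmQLFTest, 1 coefficient per group, each compound weighted equally, 9 residual degrees of freedom, common biological coefficient of variation 14.7%), tested on simulated data. The simulated libraries had no deviations shared by replicate number, so the simulation did not cover that feature of the real ones. P-values were adjusted by Benjamini-Hochberg within each comparison, and for the pairs over all 15 pairs at once. Alternatives used DESeq2 1.42.0 and limma 3.58.1. GC content came from transcripts of the reference annotation. The SE is the log2 fold change over the square root of the test's F.

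Genes were named by p among those with a mean of at least 1 CPM on the higher side and no overlap between libraries, up to 5 each way where none passed, together with members of 27 gene lists, 26 of which had a gene tested. DMSO levels were scaled with the same procedure. Members, lists and tests were chosen with earlier results of these data known. Some results on single genes are not reported here. The authors' TPM, FPKM and fold change columns were not used here.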

Additional observations from a re-analysis of the deposited data

How the results depend on the processing

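The 4 comparisons called 0 genes in nearly all alternatives: 35 of 36 for BHA and TBHQ against the other 7, 31 of 31 for BHA, 30 of 31 for TBHQ and 11 of 13 for TBHQ against BHA, and in 5 of 5 for the pairs. In the fit of 46 day 8 libraries 9 genes passed for BHA and TBHQ together (CASP8AP2, CENPJ, DDIAS, ECT2, HAUS6, KTN1, NCAPG, PCM1 and TTC37), with a lowest adjusted p of 0.0465, and the cause was not tested. Mean levels were higher with BHA and with TBHQ than with any other antioxidant, except for ECT2 and TTC37. AO168_O had the most ECT2 (105 against 103 and 97.6 CPM) and TTC37 (57.1 against 54.9 and 55.3 CPM). The GC trend was not removed in that fit. DESeq2 called 1 gene between TBHQ and BHA (PTCD1). Leaving out 1 library in turn gave 0 to 0 genes for BHA and TBHQ together and for BHA, and 0 to 1 for TBHQ and for TBHQ against BHA, where the 1 gene was ATP5MF-PTCD1 without TBHQ replicate 1. Counts at an unadjusted p under 0.05 moved more: from 467 (without BHA replicate 1) to 1805 (without AO_2246 replicate 2) for the pair, from 162 (without BHA replicate 1) to 1416 (without AO_2246 replicate 2) for BHA, from 461 (without DTBP replicate 1) to 959 (without AO_2246 replicate 2) for TBHQ and from 145 (without BHA replicate 1) to 965 (without TBHQ replicate 2) for TBHQ against BHA.

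With the replicate number as a block, 0 genes passed in each comparison and 2072, 1799, 1109 and 562 had an unadjusted p under 0.05. In TBHQ against BHA the block moved the higher members at that level from 3 to 7 of 18 p53 targets and from 3 to 4 of 34 NRF2 targets. The count went from 3 to 5 of 18 FGF and ERK genes and from 2 to 5 of 18 surface ectoderm genes. Over all 15716 genes the block moved the higher from 140 to 251 and the lower from 143 to 311. With the block 1 FGF and ERK gene and 1 surface ectoderm gene were lower at that level, and no p53 or NRF2 target was. Same-numbered libraries deviated together in 29 of 36 pairs of groups (correlation over 0.1), 0.601 between BHA and TBHQ. The 28 pairs without DG all had a correlation of at least 0.228, and 7 of the 8 pairs with DG were at or under 0.1. The main test did not take the numbers as pairing, so differences shared by replicate number stayed in its error, also for TBHQ against BHA. The fits by replicate number and with the GC trend removed were added after seeing the data. Of 1859 alternative values for 90 differences of single genes, 1851 kept direction and side of the threshold. The 7 that reversed were all TBHQ minus BHA in HMOX1, GCLM, TXNRD1 and SLC7A11, without TBHQ replicate 1 or BHA replicate 2. With 1 of the 4 libraries left out, HMOX1 ran from −0.34 to 0.48, GCLM from −0.17 (−0.14 without TBHQ replicate 1) to 0.34, TXNRD1 from −0.0456 (−0.0133 without BHA replicate 2) to 0.15 and SLC7A11 from −0.25 (−0.0624 without TBHQ replicate 1) to 0.38. With 2 libraries a group, the spread between libraries limited what could be called, and CYP1A1, TICAM2, WNT6 and AMER3 rested on few counts.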
